A study of Macaca mulatta with 2 samples.

Results

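The alpha-crystallins and small heat shock proteins were examined in RNA-seq of untreated, wild-type optic nerves of *Macaca mulatta*, the rhesus macaque. The genes were chosen by symbol as members of the family, and no measured value enters the rule: *CRYAB*, *CRYAA*, *HSPB1*, *HSPB2*, *HSPB3*, *HSPB6*, *HSPB7* and *HSPB8*. Of these 8 genes, 7 had a row among the 16684 genes of the table, and the expression of *HSPB2* was not analysed here. The values are in TPM, a library's reads per gene divided by gene length and scaled to the same total in every library, for 2 libraries named Rep1 and Rep2. The description deposited with the data names 2 animals as the source and the study's methods 1 adult male, and the nerves were discarded tissue collected after death. All nerves were of the same condition, so no test was made, and the spread between these libraries may be technical.

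Small heat shock proteins share a conserved alpha-crystallin domain and assemble into oligomers that hold unfolding proteins in solution without using ATP, until ATP-driven chaperones refold them or they are degraded. *CRYAB*, alpha B-crystallin, is a major lens protein that oligodendrocytes and astrocytes also make, and it accumulates with glial fibrillary acidic protein in the Rosenthal fibres of diseased astrocytes. *CRYAA*, alpha A-crystallin, is its partner in the lens and is also made in the retina. *HSPB1* is induced by stress in many cells and binds actin and intermediate filaments, *HSPB8* works with the co-chaperone BAG3 in selective autophagy, and *HSPB2*, *HSPB3*, *HSPB6* and *HSPB7* are best known from muscle.

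Heat shock factors bind inverted repeats of the unit GAA and its complement. The 250 bases before the start of 1 annotated transcript of each gene were therefore searched for GAANNTTC and TTCNNGAA, which read the same on both strands and overlap where 3 units follow each other. *CRYAB* and *HSPB7* held 3 alternating units, which 0.34% of the 16263 windows of listed genes held. *HSPB1*, *HSPB2* and *HSPB8* held GAANNTTC alone, which 4.63% of the windows held, and TTCNNGAA was in 5.37%. The windows of *CRYAA*, *HSPB3* and *HSPB6* held neither. The 30 bases around each match are shown 5′ to 3′ on the strand of the gene, with the match in capitals, to set the shared letters side by side. On Mmul_10, the window of *CRYAB* is chr14:105058855-105058884 (minus strand), that of *HSPB7* chr1:208756527-208756556 (plus), that of *HSPB1* chr3:44916838-44916867 (minus), that of *HSPB2* chr14:105059223-105059252 (plus) and that of *HSPB8* chr11:118921029-118921058 (plus). The match starts 66 bases before the transcript start in *CRYAB*, 204 in *HSPB7*, 70 in *HSPB1*, 61 in *HSPB2* and 234 in *HSPB8*.
CRYAB: catcaccaTTCCAGAAGCTTCacaagactg
HSPB7: tgcccatcTTCAGGAACCTTCaatctaatg
HSPB1: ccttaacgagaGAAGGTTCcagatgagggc
HSPB2: ggcagggactgGAATCTTCctaggctgggc
HSPB8: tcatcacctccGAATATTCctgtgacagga
Annotated exons cover 165 of the 250 upstream bases of *CRYAB*, 116 of those of *HSPB6* and all 250 of those of *HSPB7*, where they belong to *LOC703259* on the opposite strand. The match of *CRYAB* lies inside an exon of its 3 longer predicted models. These letters describe the annotated sequence (RefSeq, Mmul_10), and a match does not show that a factor binds there. The whole upstream windows of *HSPB1* (chr3:44916787-44917036, minus strand) and *CRYAA* (chr3:3517698-3517947, minus strand) are also shown. These genes were picked because they differed between the libraries in opposite directions, and whether the sequences bear on that was not tested. The match of *HSPB1* is again in capitals, and *CRYAA* has none.
HSPB1: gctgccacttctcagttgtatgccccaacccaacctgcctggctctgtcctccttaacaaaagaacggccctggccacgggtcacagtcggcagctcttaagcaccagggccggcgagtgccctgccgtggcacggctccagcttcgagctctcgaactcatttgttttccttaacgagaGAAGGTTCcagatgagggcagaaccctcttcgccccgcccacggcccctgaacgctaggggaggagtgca
CRYAA: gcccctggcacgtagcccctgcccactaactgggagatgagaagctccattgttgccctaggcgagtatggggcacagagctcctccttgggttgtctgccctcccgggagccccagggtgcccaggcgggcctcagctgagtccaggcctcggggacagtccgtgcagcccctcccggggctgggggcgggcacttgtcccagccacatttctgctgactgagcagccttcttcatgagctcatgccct
Of these bases, 60.8% were G or C in *HSPB1* and 66.0% in *CRYAA*. The letters TATAAA, on either strand, were found in the window of *HSPB3* and in 8.34% of all windows. CANNTG, the E-box core bound by muscle transcription factors among others, was in 58.29% of all windows, with 5 matches in *HSPB7*, 3 in *HSPB1*, 2 in *CRYAA*, 1 each in *CRYAB*, *HSPB3* and *HSPB6*, and no match in *HSPB2* or *HSPB8*.

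The libraries differed in ways that bear on every gene below. In TPM, 1 read in Rep1 weighed as much as 17.2 in Rep2, so low values in Rep1 rest on few reads, and 38.5% of the listed genes were at 0 in Rep1 against 12.5% in Rep2. *MBP*, the myelin basic protein gene, accounted for 4.37% of the Rep1 total and 20.0% of the Rep2 total. Of the 14693 genes detected (above 0 in Rep1 or Rep2), 51.3% were at least 2-fold higher in Rep2 and 14.8% at least 2-fold higher in Rep1 on the log2(TPM + 1) scale, where the median gene differed by -1.07 (Rep1 minus Rep2). Scaling by the median of ratios, which corrects a log2 shift of -1.19, moved the share of such genes that were higher in Rep1 from 22.4% to 41.2%. In a bulk sample, fewer cells of a type and less RNA per cell cannot be told apart.

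*CRYAB* was by far the most abundant of the 7 transcripts. It stood at 958 TPM in Rep1 and 1594 in Rep2, a mean of 1276 ± 450 TPM (SD, n = 2), at percentile 99.5 of the detected genes. *HSPB1* followed with 54.3 TPM in Rep1 and 328 in Rep2, a mean of 191 ± 193 TPM (SD, n = 2), at percentile 94.5. Both genes were high in either library, and Rep2 was the higher for each. *HSPB8*, the BAG3 partner, was at 38.8 TPM in Rep1 and 183 in Rep2, a mean of 111 ± 102 TPM (SD, n = 2), at percentile 90.0. *HSPB6*, which is abundant in muscle and inhibits smooth muscle contraction when phosphorylated, was at 19.0 TPM in Rep1 and 161 in Rep2, a mean of 89.8 ± 100 TPM (SD, n = 2), at percentile 87.7. These genes were also higher in Rep2, by 4.73-fold for *HSPB8* and 8.47-fold for *HSPB6* on the TPM scale. The Rep1 values of *HSPB6* and *HSPB8* may rest on few reads, since the smallest whole read numbers that give their ratios were 2 reads in Rep1 and 291 in Rep2 for *HSPB6*, and 5 and 406 for *HSPB8*. For *CRYAB* these lower bounds were 823 and 23521 reads, and for *HSPB1* 25 and 2591 reads.

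*CRYAA* stood at 16.1 TPM in Rep1 and 1.46 in Rep2, from at least 16 and 25 reads, with a mean of 8.79 ± 10.4 TPM (SD, n = 2). It was thus the only one of the 7 genes that was higher in Rep1, where it reached percentile 71.5 of the detected genes, against 21.3 in Rep2. *HSPB3*, a muscle gene whose product forms a complex with that of *HSPB2*, was listed at 0 in Rep1 and at 5.05 TPM in Rep2. *HSPB7*, a gene of heart and skeletal muscle, was listed at 0 in Rep1 and at 0.735 TPM in Rep2. Of the 200 genes closest in Rep2 level, 36.5% for *HSPB3* and 67.0% for *HSPB7* were at 0 in Rep1 as well. Most genes at the level of *HSPB3* were thus above 0 in Rep1 and most at the level of *HSPB7* were not, and a value of 0 does not show that a transcript was absent.

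**Figure D1:**
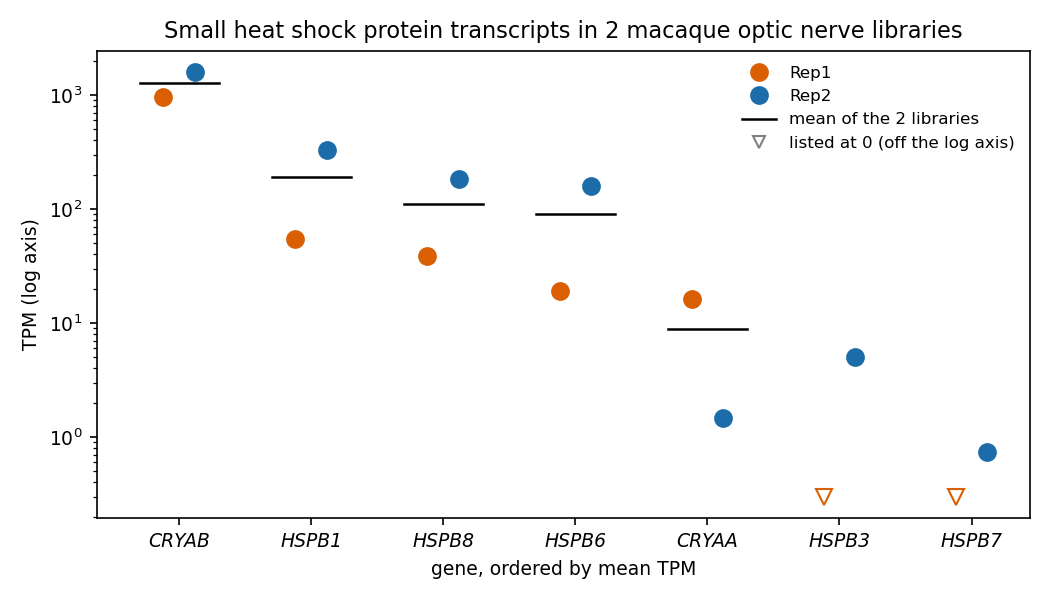
TPM on a log axis of the 7 transcripts in Rep1 and Rep2 (points), with the mean of the libraries (bars) where both are above 0, and open triangles for values listed at 0. *CRYAB* stood above all others in both libraries, and *CRYAA* was the only gene with the higher value in Rep1.

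Per length, the mean levels ran in the order *CRYAB*, *HSPB1*, *HSPB8*, *HSPB6*, *CRYAA*, *HSPB3* and *HSPB7*. Of the 21 pairs of these genes, 20 stood in this order in Rep1, where *HSPB3* and *HSPB7* were tied at 0. In Rep2, 20 pairs did, because *HSPB3* was above *CRYAA* there. To judge neighbours in this order, the SD of a single library was estimated from how far Rep1 and Rep2 lay apart in 200 genes of similar mean level. *CRYAB* was above *HSPB1* by 3.20 on the log2(TPM + 1) scale, or 1.81 times that SD, and *HSPB6* was above *CRYAA* by 3.13, or 1.83 times. *HSPB1* and *HSPB8* differed by 0.388 SDs and *HSPB8* and *HSPB6* by 0.372 SDs. That SD includes the general shift between the libraries, so it does not measure how steady an order is within a library. *HSPB1* was 1.40 times *HSPB8* in Rep1 and 1.79 times in Rep2, and *HSPB8* was 2.04 and 1.14 times *HSPB6*. The order of these 3 genes was thus the same in both libraries, but it was not tested. The lower pairs, *CRYAA* with *HSPB3* (0.821 SDs) and *HSPB3* with *HSPB7* (0.794 SDs), were also under 1 SD.

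*CRYAB* held 88.2% of the summed TPM of the 7 genes in Rep1 and 70.1% in Rep2. The sum was 1087 TPM in Rep1 and 2273 in Rep2, and without *CRYAB* it was 128 TPM and 679 TPM. A ratio of genes within a library does not change when that library is rescaled, so it sets aside the general shift between the libraries. *CRYAB* was 17.6 times *HSPB1* in Rep1 and 4.87 times in Rep2, and 24.7 and 8.70 times *HSPB8*. Among the other abundant members the ratios were closer to each other, with *HSPB1* at 1.40 times *HSPB8* in Rep1 and 1.79 times in Rep2, and at 2.86 and 2.04 times *HSPB6*. The widest change among these was that of *HSPB8*, at 2.04 times *HSPB6* in Rep1 and 1.14 times in Rep2.

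On the log2(TPM + 1) scale the difference between the libraries (Rep1 minus Rep2) was -0.73 for *CRYAB*, and it turned to 0.46 after scaling by the median of ratios. The difference was -2.57 for *HSPB1*, -2.21 for *HSPB8* and -3.02 for *HSPB6*, and after that scaling it was -1.39, -1.04 and -1.85. It was 2.80 for *CRYAA*, and 3.69 after the scaling. Thus *HSPB1*, *HSPB8* and *HSPB6* were lower in Rep1 on either scale and *CRYAA* was higher, whereas the direction of *CRYAB* depended on the scaling. The 200 genes nearest in level differed by a root mean square of 2.57 for *CRYAB*, 2.42 for *HSPB1*, 2.35 for *HSPB8*, 2.13 for *HSPB6* and 2.67 for *CRYAA*. As deposited, with the general shift in both figures, the differences of *HSPB6*, *HSPB1* and *CRYAA* were above this typical size, those of *HSPB1* and *CRYAA* only narrowly, and those of *CRYAB* and *HSPB8* were below it. For the genes listed at 0 in Rep1, the difference was -2.60 for *HSPB3* and -0.79 for *HSPB7*, values that follow from the pseudocount. Of the 7 genes, 4 were at least 2-fold higher in Rep2 and 1 in Rep1, beside 51.3% and 14.8% of all detected genes. Their median difference was -2.21, against -1.07 over all detected genes.

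**Figure D2:**
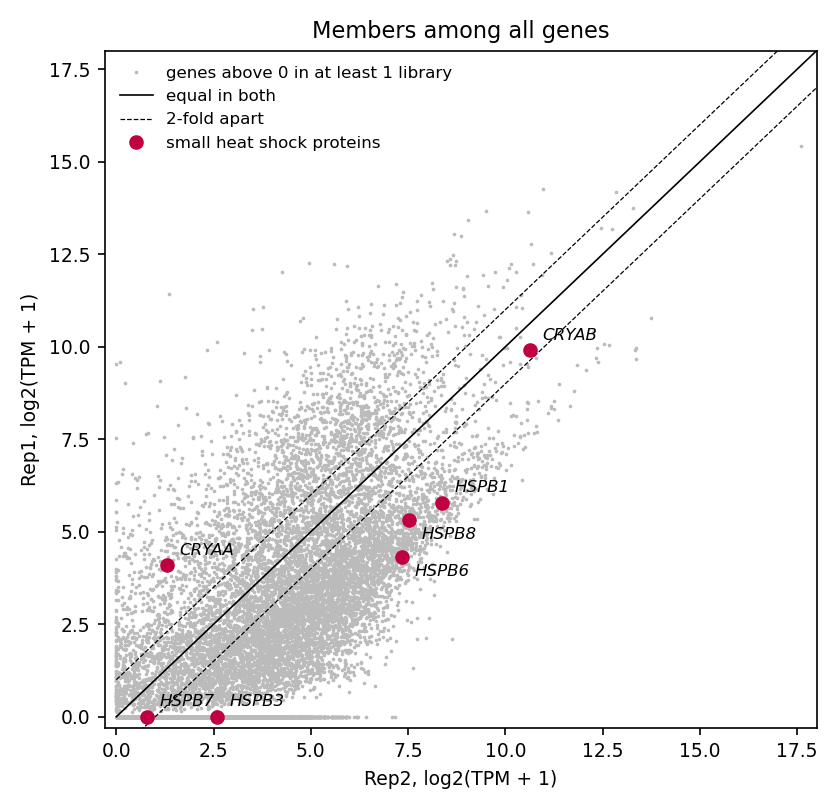
log2(TPM + 1) in Rep1 against Rep2 for the 14693 detected genes (grey) and the 7 members (red), with lines of equality and of 2-fold difference. *HSPB1*, *HSPB8*, *HSPB6* and *HSPB3* lie below the 2-fold band, *CRYAB* and *HSPB7* lie inside it and *CRYAA* lies above it.

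The genes nearest to each member in the log2(TPM + 1) values of both libraries, a likeness over only 2 points, were found for the 5 members above 0 in both. *CRYAB* was nearest to *FOS*, an immediate early transcription factor gene (distance 0.27), to *HSP90AA1*, the stress-inducible cytosolic HSP90 (0.39), and to *ITM2C* (0.45). *HSPB1* was nearest to *S100A16* (0.026), *NDUFB2* (0.044) and *TMBIM1* (0.064), and *HSPB8* to *CYP39A1* (0.016), *ATRAID* (0.091) and *GLB1* (0.096). *HSPB6* was nearest to *SSR4* (0.019), to the elastic fibre gene *LOXL1* (0.053) and to *PRELP* (0.056), which encodes a proteoglycan of connective tissue. *CRYAA* was nearest to *ATXN7L2* (0.058), *PIK3R3* (0.096) and *NBEA* (0.11).

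*CRYAB* and *HSPB2* lie head to head on chromosome 14 of Mmul_10, *CRYAB* from 105055681 to 105070284 on the minus strand and *HSPB2* from 105059295 to 105061137 on the plus strand. The starts of their curated transcripts are separated by 484 bases. Of the 5 annotated *CRYAB* transcripts, the curated one has 3 exons, 700 bases and a coding sequence for 175 amino acids. Among the predicted models of *CRYAB*, 3 start inside the first exon of *HSPB2* or beyond it. The 189 exonic bases shared on opposite strands lie in a predicted model, and the curated transcripts share none. The library kit keeps no strand information, so reads from these bases cannot be assigned to either gene. The paper names RefGene annotation for its alignment. Whether that holds the predicted model is not given in the sources used here, nor is the treatment of such reads. The curated *CRYAB* transcript had none of its 670 stretches of 31 bases in transcripts of another gene, on either strand.

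**Figure D3:**
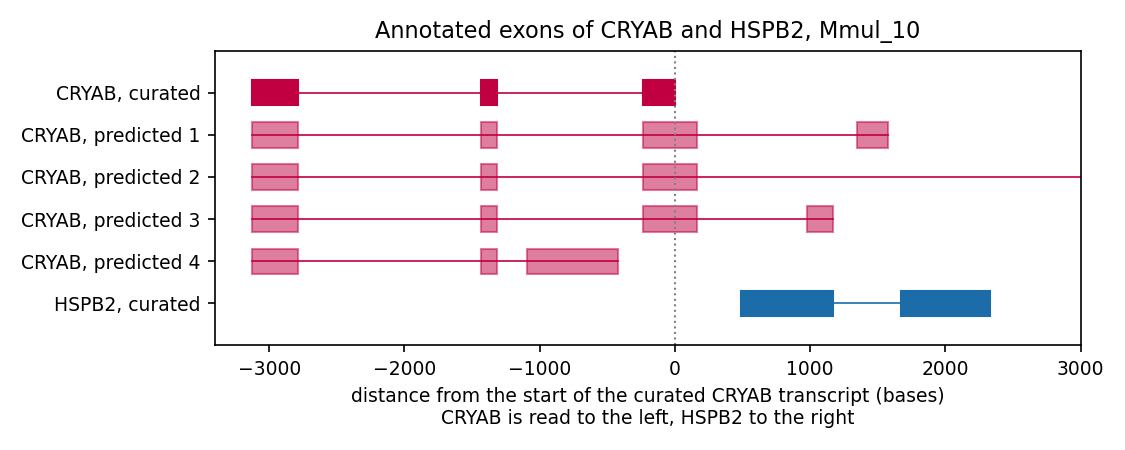
Annotated exons (boxes) of the curated and predicted *CRYAB* transcripts (red) and of *HSPB2* (blue), by distance in bases from the start of the curated *CRYAB* transcript. The curated transcripts point away from each other with 484 bases between their starts, and the first exon of predicted model 3 lies within an exon of *HSPB2*; model 2 runs past the right edge.

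The other members lie apart from each other. *CRYAA* (3513901 to 3517697) and *HSPB1* (44915073 to 44916786) are on the minus strand of chromosome 3, *HSPB3* (52783090 to 52783858) on the plus strand of chromosome 6, and *HSPB6* (35168222 to 35171745) on the minus strand of chromosome 19. *HSPB7* (208756739 to 208761998) is on the plus strand of chromosome 1 and *HSPB8* (118921274 to 118962993) on the plus strand of chromosome 11. *HSPB6* stands between genes on the opposite strand, 48 bases from *LIN37* and 31 bases from *PROSER3*. *LIN37* was at 6.68 TPM in Rep1 and 53.3 in Rep2, so it too was higher in Rep2. *DIXDC1*, the nearest gene with a row beside *CRYAB*, was at 16.1 and 84.3 TPM, and *U2AF1*, beside *CRYAA*, at 70.6 and 86.4 TPM. *CRYAA*, *HSPB1*, *HSPB3*, *HSPB6* and *HSPB8* shared no stretch of 31 bases with transcripts of other genes, and *HSPB7* shared 1 of 3378.

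The lens markers bear on the crystallins. Of 6 lens fibre genes, *MIP*, *BFSP2* and *LIM2*, which encode the lens water channel, a filament protein and a membrane protein of lens fibres, were listed at 0 in both libraries. Their summed level was 0.955 TPM in Rep1 and 2.46 in Rep2. Of 12 beta- and gamma-crystallin genes, 9 were detected, 8 were at 0 in Rep1 and 4 in Rep2. *CRYBB2* was at 32.3 TPM in Rep1 and listed at 0 in Rep2, *CRYBA1* was at 9.71 and 3.63 TPM, and *CRYBB3* was at 2.69 and 0.0783 TPM. With *CRYBA2* (5.26 and 4.49 TPM), 4 of the 9 detected genes were higher in Rep1 like *CRYAA*, and 5 were lower. Of all 14693 detected genes, 3547 were higher in Rep1 and 11146 lower. The 5 lower genes were listed at 0 in Rep1, and in Rep2 *CRYGN* was at 1.56 TPM, *CRYGS* at 1.02, *CRYBB1* at 0.574, *CRYBA4* at 0.554 and *CRYGB* at 0.179. Values of 0 in Rep1 were common at such levels. Of the 200 genes closest in Rep2 level, they made up 63.0% for *CRYAA* and 67.0% for *HSPB7*. Photoreceptor transcripts moved with *CRYAA* too. Of 10 photoreceptor genes 9 were higher in Rep1, beside 3547 of all 14693 detected genes. The summed level of the photoreceptor genes was 4036 TPM in Rep1 and 11.1 in Rep2, and *CRX* was listed at 0 in Rep2. *RLBP1*, a gene of Müller glia and pigment epithelium, was at 76.7 TPM in Rep1 and 6.12 in Rep2. The other 5 of the 6 genes of the Müller list were lower in Rep1, beside 11146 of all 14693 detected genes. Among these 5, *SLN* was near the floor, at 0 TPM in Rep1 and 0.239 in Rep2. The part of retinal RNA in the level of *CRYAA* was not tested.

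The markers of optic nerve tissue were mostly lower in Rep1, as were *HSPB1*, *HSPB6* and *HSPB8*: all genes of the oligodendrocyte, smooth muscle and fibroblast lists, 7 of 8 astrocyte genes, 7 of 8 genes of microglia and macrophages and 5 of 6 endothelial genes. Of all 14693 detected genes, 11146 were lower in Rep1, so the counts of the astrocyte, microglia and endothelial lists are near that background. The median log2 difference was -2.36 for 8 oligodendrocyte genes, -2.17 for 8 astrocyte genes, -2.61 for 8 genes of microglia and macrophages, -1.35 for 6 endothelial genes, -2.72 for 9 genes of smooth muscle and pericytes and -3.16 for 6 genes of meningeal fibroblasts. Summed levels in Rep1 and Rep2 were 46086 and 212682 TPM for oligodendrocytes, 1148 and 7342 TPM for astrocytes, 224 and 493 TPM for microglia and macrophages, 52.3 and 125 TPM for endothelial cells, 236 and 1336 TPM for smooth muscle and pericytes, and 1618 and 15164 TPM for fibroblasts. Skeletal muscle had a median of -1.06 over its 6 detected genes of 9 listed, and *MB*, *MYH1* and *MYH2* were listed at 0 in both libraries. Of its other genes, *ACTA1* (6.54 and 0.127 TPM) and *CKM* (0.596 and 0 TPM) were higher in Rep1, and *TTN* (3.08 and 10.2 TPM) and *MYLPF* (0 and 0.571 TPM) were higher in Rep2. The summed level of the muscle list was 11.2 TPM in Rep1 and 56.2 in Rep2, and most of the Rep2 sum came from *TNNT3* (0.958 and 28.6 TPM) and *TNNT1* (0 and 16.7 TPM). The share of each cell type in the small heat shock protein transcripts was not tested.

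**Figure D4:**
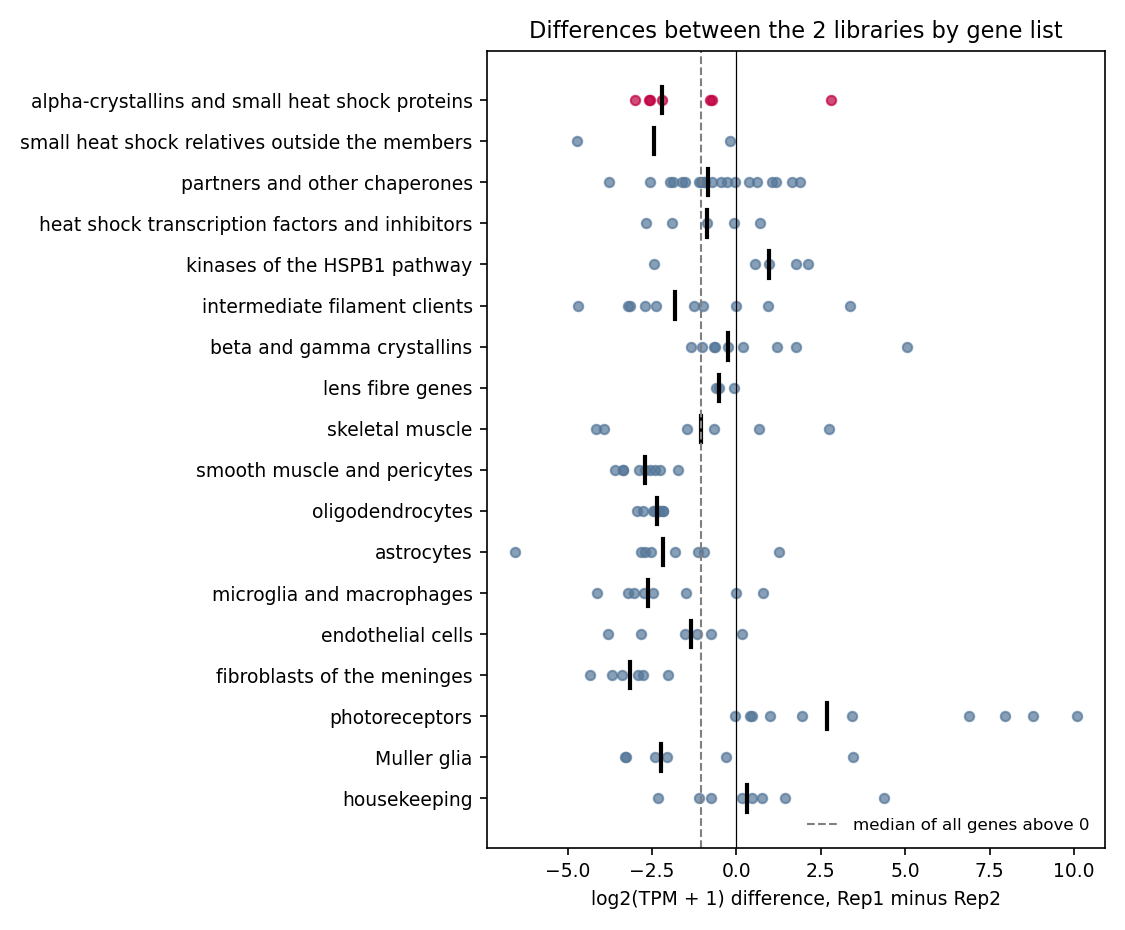
Differences in log2(TPM + 1) between the libraries (Rep1 minus Rep2) for each detected gene (points) and the median (black bar) of each list, with the median of all such genes dashed. The members have a median of -2.21, the lists of oligodendrocytes and astrocytes lie near -2.36 and -2.17, and the photoreceptor list stands apart at 2.69.

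Partners of the small heat shock proteins were then described from a list of 21 chaperones and co-chaperones, of which 20 had a row. All 20 were above 0 in both libraries. Of them, 8 were at least 2-fold higher in Rep2 and 4 at least 2-fold higher in Rep1, beside 51.3% and 14.8% of all detected genes, with a median difference of -0.83 that turned to 0.32 after scaling by the median of ratios. *BAG3*, which links HSPB8 to HSP70, was at 17.0 TPM in Rep1 and 104 in Rep2, from at least 2 and 211 reads. *HSPB8* was thus 2.28 times *BAG3* in Rep1 and 1.75 times in Rep2. *HSPA8*, the constitutive HSP70, was at 229 and 492 TPM, and *HSP90AA1* at 735 and 1513 TPM, so both were higher in Rep2. The genes at least 2-fold higher in Rep1 were *HSPA1A*, the stress-inducible HSP70 (167 and 73.9 TPM), *HSPA4*, an HSP70 exchange factor (140 and 66.6 TPM), *HSPA5*, the chaperone of the endoplasmic reticulum (673 and 217 TPM), and *DNAJA1*, an HSP40 (612 and 165 TPM). *HSPA2* (63.3 and 41.1 TPM) and *HSP90B1* (870 and 675 TPM) were higher in Rep1 by less than 2-fold. *HSPA1A* has a near-identical copy, *HSPA1B*, so its level is uncertain to that extent. *DNAJB1*, the HSP40 that works with HSP70 on stress-denatured proteins, was at 413 and 574 TPM, and *HSPA9*, the mitochondrial HSP70, at 214 and 221 TPM, and both were less than 2-fold apart.

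The heat shock factors and an inhibitor were described next. *HSF1*, the main heat shock transcription factor, was at 93.8 TPM in Rep1 and 57.6 in Rep2. *HSF4*, the factor of lens development, was at 7.13 and 13.9 TPM, *HSF2* at 2.32 and 11.5 TPM, and *HSF5*, a factor of the testis, was listed at 0 in Rep1 and at 0.0421 TPM in Rep2. *HSBP1*, which encodes an inhibitor of HSF1, was at 64.9 and 422 TPM. Of these 5 genes 2 were at least 2-fold higher in Rep2 and none in Rep1, beside 51.3% and 14.8% of all detected genes. The median difference of these 5 genes was -0.88. Among 5 kinases of the pathway that phosphorylates HSPB1, *PRKD1* (157 and 35.8 TPM) and *MAPKAPK5* (49.2 and 13.7 TPM) were at least 2-fold higher in Rep1, and *MAPKAPK3* (2.26 and 16.8 TPM) was at least 2-fold higher in Rep2. *MAPK14*, which encodes p38 alpha, was at 44.5 and 22.2 TPM, and *MAPKAPK2*, the direct kinase of HSPB1, was at 8.79 and 5.75 TPM, which rested on at least 13 and 146 reads. The median difference of the kinases was 0.97. For all detected genes the median was -1.07, with 14.8% at least 2-fold higher in Rep1 and 51.3% in Rep2.

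Small heat shock proteins bind intermediate filaments, and 10 filament genes were set beside them. Of these genes 6 were at least 2-fold higher in Rep2 and 1 in Rep1, near the 51.3% and 14.8% of all detected genes. Their median difference was -1.82. *GFAP*, the astrocyte filament, was at 658 TPM in Rep1 and 4331 in Rep2, and *VIM*, vimentin, at 513 and 2687 TPM. The following ratios were chosen after the values were seen. *HSPB1* was 0.0825 times *GFAP* in Rep1 and 0.0756 times in Rep2, and 0.106 and 0.122 times *VIM*, so *HSPB1* differed between the libraries about as much as these filament genes did. *CRYAB* was 1.46 times *GFAP* in Rep1 and 0.368 times in Rep2, and 1.87 and 0.593 times *VIM*. *CRYAB* was thus above both filament genes in Rep1 and below both in Rep2. *DES*, desmin, the muscle filament that mutant *CRYAB* disturbs, was at 20.2 and 49.6 TPM. *INA*, a neuronal filament gene, was the 1 gene at least 2-fold higher in Rep1, at 26.3 and 1.67 TPM, whereas *PRPH* was listed at 0 in Rep1 and at 24.8 TPM in Rep2.

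All 3 genes of the list named as relatives were at 0 in Rep1, as were 38.5% of all listed genes. *HSPB9*, which is expressed in testis, was listed at 0 in Rep1 and at 0.136 TPM in Rep2, and *ODF1*, a sperm tail gene, was listed at 0 in both libraries. *HSPB11*, which was listed for its symbol and encodes a protein of intraflagellar transport, was at 0 in Rep1 and at 25.5 TPM in Rep2. The median difference of the 2 detected genes of this list was -2.45, a value that follows from the pseudocount and was -4.62 with a pseudocount of 0.1.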

How the data were processed

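Total RNA of untreated macaque optic nerves (n = 2 libraries) was amplified with a SMARTer v4 kit for low input. The authors checked reads with FastQC 0.11.9, trimmed them with Trim Galore 0.6.6, aligned them to Mmul_10 with STAR 2.7.1a and counted them with featureCounts 1.5.3. The deposited values are TPM, made by the authors with NormalizeTPM in R, and the gene lengths, use of strand and treatment of reads with several alignments are not given in the sources used here. Levels between genes depend on those lengths. The columns Rep1 and Rep2 could not be tied to sample titles and served as replicates.

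Values were analysed as log2(TPM + 1) with Python 3.11.15, numpy 2.4.6 and pandas 2.3.3, and drawn with matplotlib 3.10.9. Read numbers are the smallest whole numbers that give a gene's ratio between the libraries, within 1e-12, and 99.96% of 10168 genes with a value above 0 in Rep1 and Rep2 gave them. They are lower bounds, and amplified reads are not independent molecules. The total number of reads is unknown, so no interval or detection limit was set. The spread of a single library was the root mean square difference of the 200 nearest genes, divided by the square root of the number of libraries. The read numbers and the spread were tried on simulated data. For the spread, these had no shift between libraries, less noise than most members here and only well-expressed genes above 0 in both. That trial therefore does not cover *CRYAA*, *HSPB3* or *HSPB7*. Positions, lengths and sequences came from the RefSeq annotation of Mmul_10, the build the authors used. For upstream windows, a curated transcript with the most upstream start was taken, or a predicted one where there was none.

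The members and gene lists were chosen with earlier results of these data known. The text names all members, genes of the lists (chaperones, heat shock factors, kinases, filaments, crystallins, relatives and markers of cell types) and the 3 genes nearest to each member. The search for 3 alternating units was added after the data were seen. The alternatives tried were each library alone, other gene sets for percentiles, a geometric mean, scaling by median of ratios, removal of the 10 most abundant genes, and a pseudocount of 0.1.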

Additional observations from a re-analysis of the deposited data

How the results depend on the processing

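No paired analysis was possible because only 1 condition was sequenced. Setting single libraries aside, 111 of the recomputed values stayed within the replicate spread or a factor of 1.5, 10 moved further and 3 changed sign. This spread is wide, and a geometric mean of 2 values always lies within it, so the tally does not show stability. The members' median difference, -2.21 as deposited and -1.04 after the median of ratios, was counted as within the spread. Scaling by the median of ratios turned the log2 difference of *CRYAB* from -0.73 to 0.46 and the median of the chaperone list from -0.83 to 0.32, because it raises Rep1 against Rep2. The median of the beta- and gamma-crystallins turned from -0.24 to 1.49 when genes averaging under 1 TPM were dropped. The detected genes dropped were the 5 listed at 0 in Rep1, and the 4 that remained were all higher in Rep1. After the median of ratios, 3485 genes were at least 2-fold higher in Rep1 and 4972 in Rep2, against 2170 and 7533 as deposited. The counts of members at least 2-fold apart were 4 and 1 under the median of ratios and without the 10 most abundant genes, and 5 and 1 with a pseudocount of 0.1, which widens the differences of *HSPB3* to -5.69 and of *HSPB7* to -3.06. The mean of *CRYAB* was 1236 TPM as a geometric mean and 1626 TPM without the 10 most abundant genes, and its share of the members' TPM from 70.1% in Rep2 alone to 88.2% in Rep1 alone. Each of 2 libraries always lies within 1 SD of their mean, so single libraries say nothing about the stability of a mean. The depth of Rep1 limits *HSPB3*, *HSPB6*, *HSPB7* and *HSPB8*.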

Other observations

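The housekeeping list, which includes *ACTB* and *GAPDH*, differed by a median of 0.31 on the log2(TPM + 1) scale (Rep1 minus Rep2), with 2 of 8 genes at least 2-fold higher in each direction. Of all detected genes, 14.8% were at least 2-fold higher in Rep1 and 51.3% in Rep2. *HPRT1* was at 948 TPM in Rep1 and 44.5 in Rep2, the widest difference of that list. The Müller list had a median of -2.23, the lens fibre list of -0.52 and the beta- and gamma-crystallin list of -0.24.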
